A study of Mus musculus with 8 samples.

Results

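A set of 8 genes known from the trophoblast and the placenta, out of 21517 genes listed in either of the deposited tables, was followed through mouse embryos with and without knockdown of Smarca5. They were chosen by name, through their Ensembl identifiers: Plac1, Tspan8, Tspan1, Ppl, Gjb5, Dppa1, Wnt7b and Msx2. Smarca5 (also called Snf2h) encodes the ATPase of the ISWI chromatin remodelling complexes, which slide and space nucleosomes. Pools of whole embryos labelled morula or blastocyst came from a group named NC and a group named KD, with 2 libraries per group at each stage and 20 embryos in each pool. The series names embryonic days 3.75 and 4.25 without tying either to a stage label. The mouse strain, the nature of the NC control and the way the knockdown was made are not stated in the sources used here. Polyadenylated RNA was sequenced, and each stage has its own table of normalized abundance, the authors' normalized expression value per gene.

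The trophectoderm is the outer epithelium of the blastocyst. It pumps fluid into the cavity, attaches to the uterus and founds the placenta, and its cells are held together by tight junctions, desmosomes and gap junctions. Plac1 encodes a secreted or membrane-bound protein of the trophoblast. Tspan8 and Tspan1 encode tetraspanins, small membrane proteins that gather integrins and other receptors into patches of the cell surface. Gjb5 encodes a gap junction protein of the connexin family, and Ppl encodes periplakin, a plakin that links intermediate filaments to the cell edge. Wnt7b encodes a secreted Wnt ligand, and Msx2 a homeobox transcription factor that responds to bone morphogenetic proteins. Dppa1 is one of several genes named as developmental pluripotency associated.

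Smarca5 itself checks the labels. In morulae it was 9678 and 9760 in NC and 500.7 and 470.4 in KD, and in blastocysts 7000 and 8283 in NC and 905.6 and 854.8 in KD. It fell by 4.32 on the log2 scale in morulae (adjusted p = 1.88e-04) and the log2 difference was -3.11 in blastocysts (adjusted p = 5.93e-04), in limma fits over all tested genes. Without a mean-variance trend in the fit those calls were lost, at adjusted p of 0.111 and 0.103. With the trend, Smarca5 was the only gene of 13404 that passed an adjusted p of 0.05 in morulae, which is 0.00746% of those tested. In blastocysts 12 of 13651 genes passed, 0.0879%, with 5 higher and 7 lower. Defining genes of both lineages were present in every library: Pou5f1, of the inner cell mass, was between 19699 and 27047, and the trophectoderm factor Cdx2 was between 2988 and 11721. The depth read from the smallest steps between values was about 16177240 to 18568756 reads per morula library and 13958296 to 23304923 per blastocyst library.

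Windows of 250 bases upstream of a RefSeq transcription start (GRCm38.p6) were found for 6 of the 8 genes, all but Ppl and Wnt7b. A set of 3 is shown, each read 5′ to 3′ on the gene's own strand. Gjb5 (chr4:127358165-127358414, minus strand) is shown because it was the one member whose KD libraries lay on opposite sides of NC at the 2 stages. Tspan8 (chr10:115817034-115817283, plus strand) and Dppa1 (chr11:46629275-46629524, minus strand) are shown because their blastocyst levels exceeded their morula levels by the most. Capitals mark matches, on either strand, to short motifs of the trophectoderm factors TEAD, CDX2, GATA and TFAP2.
Gjb5: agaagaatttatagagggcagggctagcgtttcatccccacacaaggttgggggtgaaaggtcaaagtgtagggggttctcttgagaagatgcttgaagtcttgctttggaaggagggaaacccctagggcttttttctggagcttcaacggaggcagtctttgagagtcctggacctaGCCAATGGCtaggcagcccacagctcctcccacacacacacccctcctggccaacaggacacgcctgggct
Tspan8: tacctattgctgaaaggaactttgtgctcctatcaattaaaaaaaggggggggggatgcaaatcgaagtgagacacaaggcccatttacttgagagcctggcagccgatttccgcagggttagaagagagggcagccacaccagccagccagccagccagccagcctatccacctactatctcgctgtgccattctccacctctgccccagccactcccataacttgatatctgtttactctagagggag
Dppa1: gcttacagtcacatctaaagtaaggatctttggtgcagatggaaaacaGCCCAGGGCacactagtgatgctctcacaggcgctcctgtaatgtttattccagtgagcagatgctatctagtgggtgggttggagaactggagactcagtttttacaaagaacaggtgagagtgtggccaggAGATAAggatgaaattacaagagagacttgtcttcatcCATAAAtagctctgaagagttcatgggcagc

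The Gjb5 window had a single match, to the TFAP2 motif, at -71 to -63 from the start site. The Tspan8 window had no match to any of the 4 motifs. The Dppa1 window had 3, TFAP2 at -202 to -194, GATA at -69 to -64 and CDX2 on the opposite strand at -31 to -26. The first bases after that Dppa1 start were not found in a GENCODE transcript, so these positions rest on the RefSeq start alone. The TEAD motif was searched as GGAATG and was held by 12.6% of 32851 windows of the same length. The CDX2 motif was searched as TTTATG and was held by 10.8% of them. For GATA factors the letters were AGATAA, held by 9.99%, and for TFAP2 factors GCCNNNGGC, held by 13.7%. None of the motifs overlapped another in the windows shown. A match is a run of letters and was not tested as a binding site.

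Of the 8 genes, 7 had higher normalized abundance in every blastocyst library than in any morula library, and Tspan1 had the reverse order. The tables were scaled separately, so these stage ratios are descriptions and carry no test. In NC, the blastocyst mean of Tspan8 was 22.4 times its morula mean, that of Dppa1 15.9 times and that of Plac1 15.1 times. The Plac1 ratio rests on an NC morula mean of 3.50, below the mean of 10 required for testing. That of Dppa1 rests on NC morula pools far apart, at 222.6 and 39.6. The ratio was 6.50 for Gjb5, 6.24 for Msx2, 4.50 for Wnt7b and 2.02 for Ppl. Tspan1 was 1.79 times higher in the morula table. The median gene had a ratio of 1.16, and 426 of 12875 genes (3.31%) reached a ratio of at least 4 in NC. Of the 7 members among those 12875 genes, 5 did: Tspan8, Dppa1, Gjb5, Msx2 and Wnt7b.

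**Figure D1:**
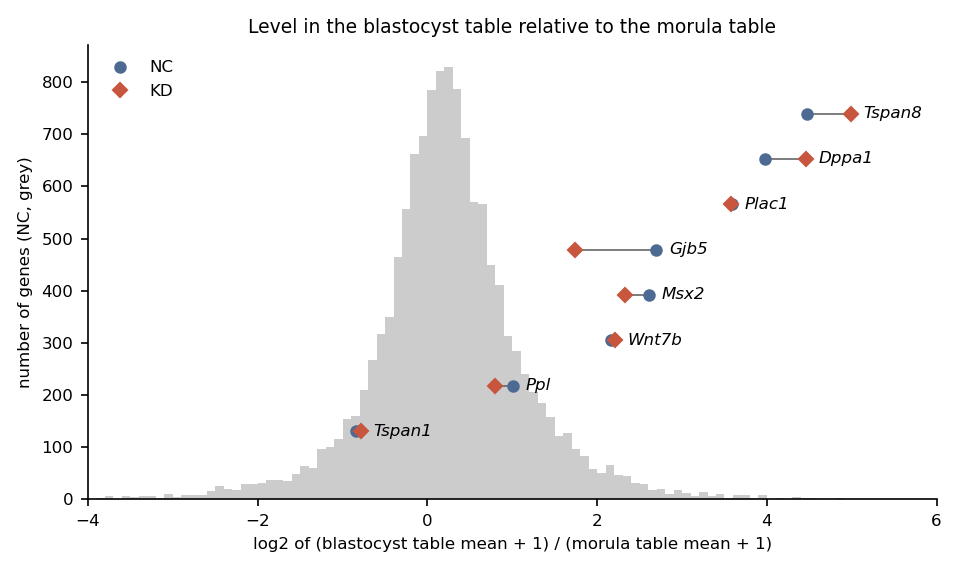
Level in the blastocyst table relative to the morula table. The grey histogram counts genes tested in both tables by their NC ratio (log2 of the blastocyst mean plus 1 over the morula mean plus 1), and points give each named gene in NC (circles) and KD (diamonds), at arbitrary heights. Tspan8, Dppa1 and Plac1 lie at the far right, Tspan1 lies left of 0, and the Gjb5 diamond lies left of its circle.

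The KD embryos kept this order of stages in each gene. In KD the blastocyst to morula ratio was 32.1 for Tspan8, 22.2 for Dppa1, 13.7 for Plac1, 5.07 for Msx2, 4.63 for Wnt7b and 1.74 for Ppl, and Tspan1 was 1.73 times higher in the morula table. The Gjb5 ratio was 3.35 in KD against 6.50 in NC, the widest proportional gap between the arms among the 8.

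Levels can be compared between genes only per length, so each value was divided by the length of the gene's merged exons (GENCODE vM21, mm10). Per kilobase, Dppa1 (1319), Tspan8 (1181) and Gjb5 (1091) led in NC blastocysts. Their libraries overlapped, at 1131 and 1507 for Dppa1, 914.1 and 1447 for Tspan8, and 1022 and 1160 for Gjb5. Wnt7b followed at 732.3 per kilobase, below every library of those 3. Tspan1 (85.5) and Msx2 (75.8) overlapped each other well below that, and Ppl (38.4) and Plac1 (37.9) were lowest and also overlapped. In NC morulae Gjb5 (167.8), Wnt7b (162.8) and Tspan1 (153.1) led and overlapped. Dppa1 was at 83.2 and Tspan8 at 52.6 per kilobase, but the Dppa1 libraries lay at 141.3 and 25.1, a range that overlaps Tspan8 and reaches those of Gjb5 and Tspan1. Ppl (18.99) and Msx2 (12.1) overlapped in turn, and Plac1 was last at 2.51.

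None of the 8 genes passed the limma test for KD against NC at either stage, among 7 tested in morulae and 8 in blastocysts. That fit does not pair libraries by replicate number, and a fit that does is given with the alternatives below. At an unadjusted p under 0.05 stood none of the 7 in morulae and 1 of the 8 in blastocysts, Gjb5, beside 1391 of 13404 and 2398 of 13651 genes. In morulae 4 of the 7 tested members had higher and 3 lower fitted values in KD, with a median log2 difference of 0.06 against -0.01 over all tested genes. In blastocysts 4 were higher and 4 lower, with a median of 0.02 against 0.00. With 2 pools a group the intervals are wide, and many reach a 2-fold difference in at least 1 direction: those of Tspan8, Ppl, Gjb5, Dppa1 and Msx2 in morulae, and of Plac1, Tspan8, Tspan1 and Msx2 in blastocysts. Since whole embryos were pooled, fewer trophectoderm cells and less RNA per cell cannot be told apart in any value given here. Nothing in the labels says that the pools came from separate matings, so the p-values measure the spread between these pools only.

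**Figure D2:**
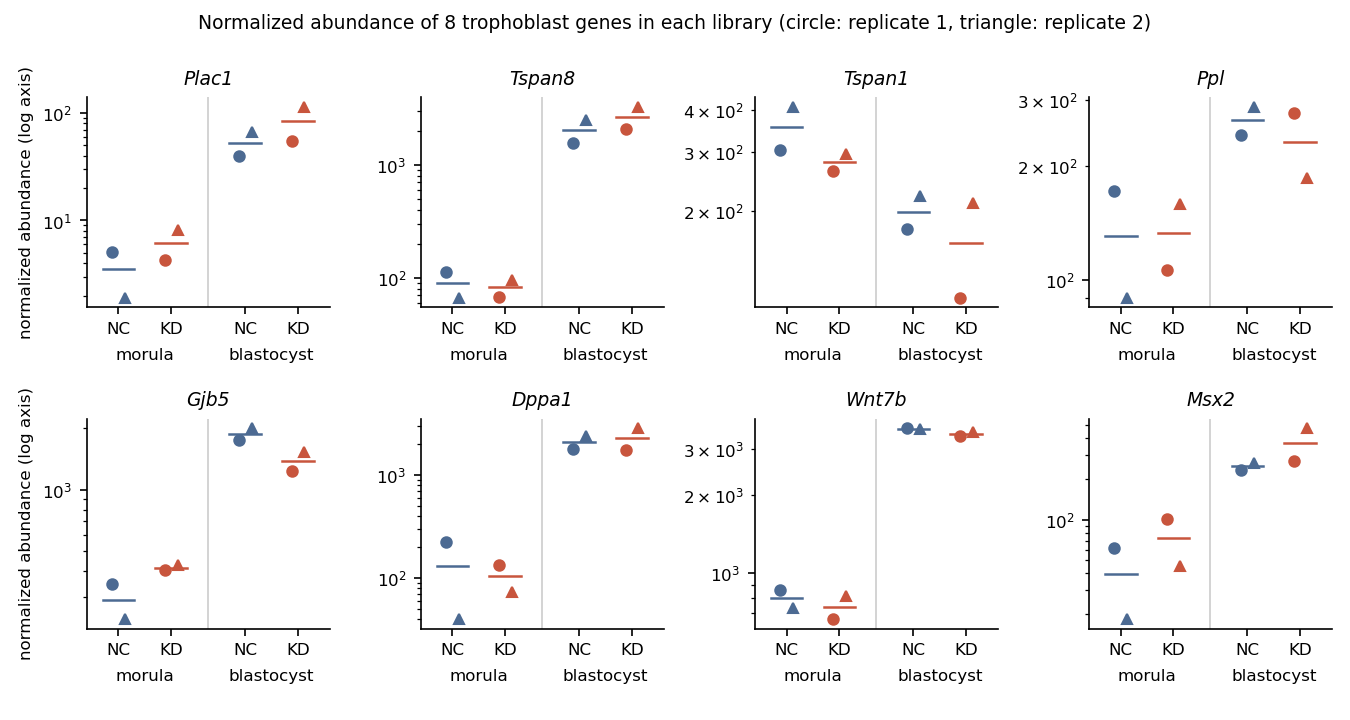
Normalized abundance (log axis, a separate scale for each gene) in each of the 8 libraries for each of the 8 genes, NC in blue and KD in red, replicate 1 as circles and replicate 2 as triangles, with bars at the group means. Blastocyst points sit above morula points for every gene other than Tspan1, and Gjb5 KD points sit above NC in morulae and below NC in blastocysts.

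**Figure D3:**
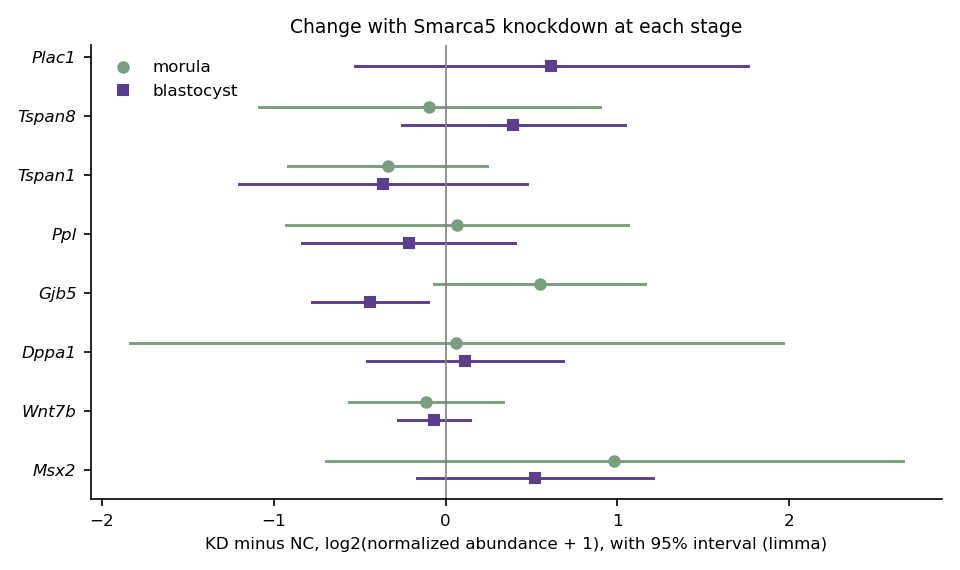
Difference KD minus NC on the log2(normalized abundance + 1) scale with its 95% interval from limma, circles for morulae and squares for blastocysts. Plac1 in morulae was below the filter and has no point. Every interval spans 0 apart from that of Gjb5 in blastocysts, which runs from -0.78 to -0.10 before any adjustment.

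Among the surface proteins, Plac1 lies on chromosome X (53069995 to 53240111, minus strand, mm10, ENSMUSG00000061082) and is named for placenta-specific expression. Its morula values of 5.09 and 1.91 in NC and 4.29 and 8.06 in KD were under the table mean of 10 required for testing. Blastocyst values were 39.97 and 65.9 in NC and 55.0 and 113.9 in KD. The blastocyst groups overlap, since the lower KD library lies between the NC libraries. The log2 difference was 0.62 ± 0.48 (SE, n = 2 against 2; limma adjusted p = 0.549).

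Tspan8 (chromosome 10, 115816832 to 115849893, plus strand, ENSMUSG00000034127) encodes a tetraspanin of epithelial surfaces. Morulae held 112.5 and 66.7 in NC and 68.4 and 96.0 in KD, with both KD libraries inside the NC range. Blastocysts held 1556 and 2463 in NC and 2049 and 3235 in KD, and the groups overlap. The log2 difference was -0.09 ± 0.41 in morulae (adjusted p = 0.962) and 0.40 ± 0.27 in blastocysts (adjusted p = 0.491). In blastocysts replicate 2 was the higher library in both arms, by 1.58 times in NC and KD alike.

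Tspan1 (chromosome 4, 116161869 to 116167601, minus strand, ENSMUSG00000028699), the second tetraspanin, had lower means in KD at both stages. NC morulae had 304.9 and 408.2 and KD morulae had 263.2 and 295.6, so that each KD library was lower than either NC library. Among all tested morula genes 21.2% had that pattern. In blastocysts it was 176.5 and 221.5 in NC and 110.6 and 212.2 in KD, and the groups overlap. The fitted difference was -0.34 ± 0.24 on the log2 scale in morulae (adjusted p = 0.681) and -0.37 ± 0.35 in blastocysts (adjusted p = 0.635), and the difference between those was -0.03 (adjusted p = 0.999).

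Gjb5 had the pattern that departed most from the other members: higher in KD morulae and lower in KD blastocysts. It lies on chromosome 4 (127354809 to 127358181, minus strand, ENSMUSG00000042357), and its connexin is a gap junction protein of trophoblast and skin. In morulae it was 345.3 and 232.2 in NC and 402.5 and 426.2 in KD, or 288.7 ± 80.0 against 414.4 ± 16.7 (SD, n = 2). Both KD libraries were above both NC libraries, a pattern of 20.7% of tested morula genes. In blastocysts it was 1758 and 1996 in NC and 1239 and 1538 in KD, or 1877 ± 168.3 against 1389 ± 211.6 (SD, n = 2). There both KD libraries were below both NC libraries, a pattern of 24.9% of tested blastocyst genes.

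The fitted log2 difference of Gjb5 was 0.55 ± 0.26 in morulae (SE; 95% interval -0.07 to 1.16; limma adjusted p = 0.531) and -0.44 ± 0.14 in blastocysts (-0.78 to -0.10; limma adjusted p = 0.196). The blastocyst difference minus the morula difference was -0.99 ± 0.29, with a limma p of 0.00883 before adjustment and 0.835 after it over 12875 genes. No gene passed that test of a difference between stages (0% of those tested), and 687 had an unadjusted p under 0.05. Opposite sides at the 2 stages without overlap were seen in 557 of the 12875 genes, 4.33%, and in 1 of the 7 members tested at both. Since the groups do not overlap at either stage, leaving out 1 library could not change the signs of Gjb5. The differences then ran from 0.26 to 0.83 in morulae and -0.60 to -0.28 in blastocysts.

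Another connexin gene, Gja4 (connexin 37), passed the filter on low values in morulae only through its KD libraries. It was 8.31 and 6.19 in NC and 13.5 and 16.4 in KD morulae, and 35.1 and 38.9 in NC and 28.9 and 18.8 in KD blastocysts (log2 differences 0.95 and -0.64, limma adjusted p = 0.709 and 0.536). Across the connexins other than Gjb5, none of 3 tested in morulae and none of 5 in blastocysts passed the limma test, with 1 at each stage, Gja1, at an unadjusted p under 0.05. Gja1 (connexin 43) had both KD libraries above both NC libraries at each stage, with log2 differences of 0.34 (adjusted p = 0.402) and 0.26 (adjusted p = 0.177).

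Ppl (chromosome 16, 5086291 to 5132421, minus strand, ENSMUSG00000039457) showed no ordering of the groups. Its morula levels were 171.8 and 89.9 in NC and 106.7 and 159.3 in KD, with the KD libraries inside the NC range. Its blastocyst levels were 242.0 and 286.9 in NC and 277.2 and 185.7 in KD, which overlap. KD differed from NC by a log2 value of 0.07 ± 0.41 in morulae (adjusted p = 0.970) and -0.21 ± 0.26 in blastocysts (adjusted p = 0.714).

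Wnt7b (chromosome 15, 85535437 to 85582473, minus strand, ENSMUSG00000022382) was the most tightly measured member. In morulae it was 860.2 and 734.9 in NC and 662.5 and 815.1 in KD, which overlap. In blastocysts it was 3599 and 3574 in NC and 3374 and 3471 in KD, with both KD libraries just below both NC libraries. The log2 difference was -0.11 ± 0.19 in morulae (adjusted p = 0.880) and -0.07 ± 0.09 in blastocysts (adjusted p = 0.731). The blastocyst interval, -0.28 to 0.14, is the narrowest of the 8 genes. Wnt7b shares 324 exonic bases with the antisense gene AU022754, and since use of strand in the counting was not found in the labels, their reads cannot be told apart there.

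Msx2 (chromosome 13, 53466884 to 53473074, minus strand, ENSMUSG00000021469) had higher means in KD at both stages. Among morulae it reached 61.3 and 18.4 in NC and 101.2 and 45.1 in KD, which overlap. Among blastocysts it reached 233.6 and 263.5 in NC and 269.9 and 471.3 in KD, with both KD libraries above both NC libraries, as in 24.6% of tested blastocyst genes. Its log2 difference was 0.98 ± 0.70 in morulae (adjusted p = 0.681) and 0.52 ± 0.29 in blastocysts (adjusted p = 0.402). The lower KD blastocyst library exceeded the higher NC library by little, and the KD mean of 370.6 rests on the library at 471.3.

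Dppa1 (chromosome 11, 46607772 to 46629261, minus strand, ENSMUSG00000064010) varied most between pools of one kind. In NC morulae it was 222.6 and 39.6, and the KD values of 133.7 and 72.5 lie between them. In blastocysts it was 1781 and 2374 in NC and 1754 and 2824 in KD, so that the KD pair spans the NC pair. The log2 difference was 0.06 ± 0.79 in morulae (adjusted p = 0.987) and 0.11 ± 0.24 in blastocysts (adjusted p = 0.843).

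The test of the difference between stages passed for none of the other members. Its estimate was 0.49 for Tspan8 (limma adjusted p = 0.938), -0.46 for Msx2 (0.959), -0.28 for Ppl (0.959), 0.05 for Dppa1 (0.999) and 0.05 for Wnt7b (0.981).

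The order of the replicates is given as description, since the share of all tested genes with the same order was not counted. In blastocysts Plac1, Tspan8, Tspan1, Gjb5, Dppa1 and Msx2, 6 of the 8, were higher in replicate 2 than in replicate 1 in both arms, and none was lower in both. In morulae Tspan1 was higher in replicate 2 in both arms, and Dppa1 and Msx2 were lower. The hemoglobin gene Hbb-bs was at 0 in both replicate 1 blastocyst libraries and at 82.9 (NC) and 40.05 (KD) in replicate 2. Of the blood marker list 4 of 12 genes were tested in blastocysts, and its summed level was 917.5 and 472.9 in NC and 991.6 and 746.2 in KD, higher in replicate 1. Most of that sum was the macrophage gene Cd68, at 896.2 and 292.0 in NC and 972.4 and 643.7 in KD. The part of blood RNA in the replicate pattern was not tested.

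The nearest patterns across the 8 libraries, by Pearson r of log2 values centred within each table among 11700 protein-coding genes, are given as description. Gjb5 was most like Rnf34 (0.989), Kctd5 (0.982) and Klhdc2 (0.981). Dppa1 was most like Vcl (0.993), which encodes the junction protein vinculin, then Ttc37 (0.983) and Cmpk1 (0.982). For Msx2 they were Snrnp40 (0.991), Hykk (0.987) and Slc35c1 (0.984), and for Wnt7b Hs1bp3 (0.971), Heca (0.968) and Mmp11 (0.968). For Tspan8 they were Ckap5 (0.960), Mki67 (0.959) and Klf7 (0.956). Hira, Ssx2ip and Dck each reached 0.953 with Tspan1, and Pcyox1 (0.932), Mest (0.925) and Aldh16a1 (0.912) came closest to Ppl. Each r rests on 8 points whose libraries are shared by all genes, and it carries no test.

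Other trophoblast genes give the setting of these 8. Of the trophectoderm transcription factors none of 19 tested in morulae and none of 16 in blastocysts passed, with median log2 differences of -0.03 and 0.18. At an unadjusted p under 0.05 there were 3 and 7. In blastocysts 7 of the 16 (43.8%) had both KD libraries above both NC libraries and 3 had both below. Among all tested genes 24.6% and 24.9% did. Esrrb (-0.62 in blastocysts) is in this list and also in the epiblast list. Hand1, a factor of trophoblast giant cells, was 322.1 and 183.4 in NC and 1012 and 529.2 in KD blastocysts (log2 difference 1.59, limma adjusted p = 0.124). Gata3 was 8790 and 8024 in NC and 10401 and 10674 in KD (0.33, adjusted p = 0.141), and Ets2 was 275.6 and 248.8 in NC and 147.8 and 123.7 in KD (-0.95, adjusted p = 0.128). Of the other trophoblast and placental genes none of 30 passed in morulae and none of 31 in blastocysts, with 6 and 12 at an unadjusted p under 0.05. In blastocysts 15 of those 31 (48.4%) had both KD libraries above both NC libraries and 4 had both below, beside 24.6% and 24.9% of all tested genes, and their median was 0.27. Krt7, a keratin of simple epithelium, was 534.1 and 512.3 in NC and 746.5 and 694.2 in KD (0.46, adjusted p = 0.182). The 8 members had 1 of 8 above and 2 of 8 below.

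Tetraspanins other than Tspan8 and Tspan1 did not pass either, 0 of 20 at each stage in limma (3 and 5 at an unadjusted p under 0.05), with medians of -0.03 and 0.08. Cd9 was 8984 and 8143 in NC and 10711 and 11341 in KD blastocysts (0.37, limma adjusted p = 0.124). Cd82 was 269.0 and 241.9 in NC and 132.4 and 112.4 in KD morulae (-1.06, adjusted p = 0.362). Among 12 tetraspanin partners tested at each stage none passed, with 4 and 2 at an unadjusted p under 0.05. The integrin subunit Itgb1 was 3511 and 3608 in NC and 5144 and 5300 in KD blastocysts (0.55, adjusted p = 0.0742), and Itgb4 was 390.2 and 362.2 in NC and 189.9 and 181.3 in KD (-1.01, adjusted p = 0.0987).

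Of the plakin and desmosome genes around Ppl, none of 20 in morulae and none of 21 in blastocysts passed, with 5 and 8 at an unadjusted p under 0.05. In morulae 8 of 20 (40%) had both KD libraries below NC and 2 had both above, beside 21.2% and 20.7% of all tested genes, with a median of -0.17. In blastocysts 8 of 21 (38.1%) had both above and 3 both below, beside 24.6% and 24.9% of all tested genes, with a median of 0.15. Desmoplakin (Dsp), which anchors intermediate filaments at desmosomes, was 4522 and 3873 in NC and 2748 and 2755 in KD morulae (-0.60, limma adjusted p = 0.362). Ppl itself overlapped at both stages.

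Around Wnt7b, the other Wnt ligands had medians of 0.45 over 6 tested in morulae and 0.51 over 7 in blastocysts, and none passed (1 and 2 at an unadjusted p under 0.05). One of those tested in morulae, Wnt2b (log2 difference 1.27), had an NC mean of 8.50, under the filter of 10. It passed that filter through KD, and the morula median rests in part on it. Wnt6 was 27.7 and 28.4 in NC and 70.2 and 76.8 in KD morulae (1.36, limma adjusted p = 0.403), and 438.3 and 595.6 in NC and 726.8 and 856.3 in KD blastocysts (0.63, adjusted p = 0.182). Wnt9a was 100.4 and 136.9 in NC and 257.3 and 256.8 in KD blastocysts (1.13, adjusted p = 0.118). Secretion, receptor and canonical pathway genes had medians of 0.09 over 28 and 0.01 over 29, with none passing (3 and 5 at an unadjusted p under 0.05). Of the Wnt target genes none of 12 and none of 11 passed, with 6 at each stage at an unadjusted p under 0.05. In morulae 6 were higher and 6 lower, and in blastocysts 6 higher and 5 lower. Ccnd1, a cyclin often raised by Wnt signalling, was 192.5 and 239.3 in NC and 630.6 and 478.7 in KD morulae (1.35, adjusted p = 0.343). Myc, a transcription factor also counted among Wnt targets, was 404.5 and 588.8 in NC and 231.2 and 298.6 in KD blastocysts (-0.89, adjusted p = 0.154).

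Around Msx2, 1 gene of the BMP, MSX and DLX list passed. Id3, an inhibitor of basic helix-loop-helix factors and a common BMP response gene, fell in KD blastocysts from 540.9 and 702.3 to 124.0 and 154.7 (log2 difference -2.15, limma adjusted p = 0.0479). Leaving out any 1 of the 4 blastocyst libraries ended that call, with adjusted p between 0.121 and 0.188, as did a fit without the mean-variance trend (0.156). The other 17 genes tested in blastocysts and all 19 in morulae did not pass, and the list medians were -0.06 in morulae and 0.13 in blastocysts. The ligand Bmp2 was 5.43 and 2.43 in NC and 40.2 and 65.5 in KD blastocysts (3.48, adjusted p = 0.0988), and its NC mean of 3.93 lies under the filter of 10, which it passed through KD. Of the other Dppa genes none of 4 passed at either stage, before or after adjustment. Dppa4 was 2903 and 3225 in NC and 3520 and 3550 in KD blastocysts (0.21, adjusted p = 0.326).

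**Figure D4:**
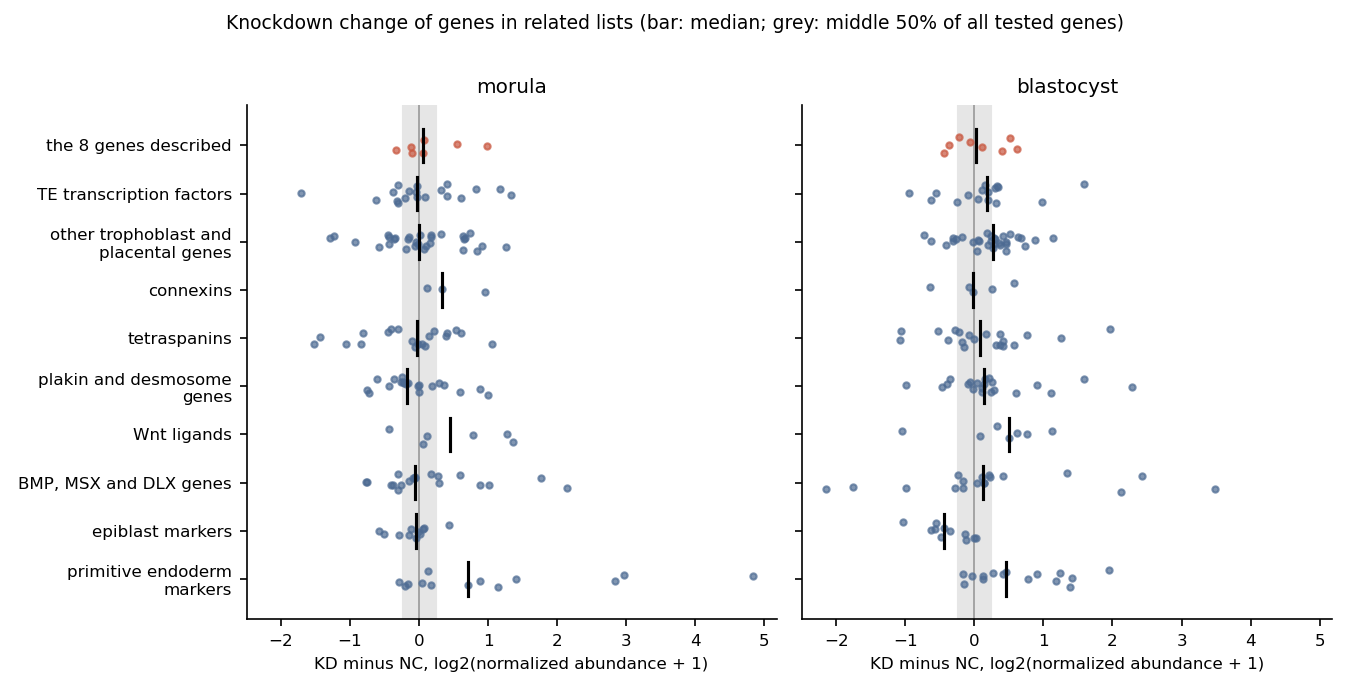
KD minus NC on the log2(normalized abundance + 1) scale for the 8 genes (red) and for 9 related lists (blue), morulae at left and blastocysts at right, a point per tested gene, black bars at list medians and a grey band over the middle 50% of all tested genes. The 8 genes centre near 0 at both stages, with medians of 0.06 and 0.02, the epiblast list lies at -0.43 in blastocysts and the primitive endoderm list at 0.70 and 0.46.

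Markers of other cell types were summed in the same libraries. Of the epiblast list 8 of 11 tested genes (72.7%) had both KD libraries below NC in blastocysts and none had both above, beside 24.9% and 24.6% of all tested genes, with a median of -0.43 and none passing (6 at an unadjusted p under 0.05). Its summed level in blastocysts was 42461 to 45938 in NC and 37410 to 39897 in KD. In morulae the sums overlapped, at 41869.6 to 45072.5 in NC and 42152.8 to 44581 in KD, with a median of -0.04. Of the primitive endoderm list 8 of 13 in morulae and 8 of 15 in blastocysts had both KD libraries above NC and none had both below. Among all tested genes 20.7% and 24.6% had both above. None of the list passed (5 and 7 at an unadjusted p under 0.05). Their medians were 0.70 and 0.46. The primitive endoderm list summed to 21298 to 21599 in NC and 24294 to 25711 in KD morulae. Its blastocyst sums overlapped, at 33470 to 39746 in NC and 39308 to 47549 in KD. The cumulus and granulosa list, whose defining genes Fshr, Cyp19a1, Ptx3, Has2 and Tnfaip6 were not analysed here, summed to 132.1 to 218.7 in NC and 317.9 to 329.2 in KD morulae, with 5 of 18 genes tested. Its ranges overlapped in blastocysts, at 223.8 to 378.3 in NC and 237.3 to 509.7 in KD. The oviduct and uterine list summed to 590.9 to 666.8 in NC and 499.9 to 556.5 in KD morulae. In blastocysts it summed to 1647 to 1727 in NC and 1687 to 1853 in KD. The part of these cell types in the values of the 8 genes was not tested.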

How the data were processed

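RNA from 8 pools of mouse morulae and blastocysts was measured by sequencing of polyadenylated RNA, 2 NC and 2 KD pools per stage, grouped by the sample labels. The authors deposited 1 table of normalized signal (abundance) per stage, with the replicates in separate columns. The submitters' processing notes name Salmon 0.14.1, DESeq2 and mm10, without their roles. Symbols were matched to 98.9% of gene identifiers in each table.

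KD was compared with NC within each table by limma 3.58.1 (R 4.3.3) on log2(value + 1), for genes with a table mean of at least 10, with a mean-variance trend and Benjamini-Hochberg adjustment over all tested genes at 0.05. A fit of all 8 libraries tested the difference between stages. The fits were checked on simulated data. Fold changes on this scale understate those of low genes. For genes above 0 in more than 1 library, low values were whole multiples of the step of a read in 26.8% (morula) and 24.7% (blastocyst) of cases (tolerance 0.01), so no count test was run. The precision is limited by 2 pools per group.

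The text names the 8 genes, Smarca5, up to 3 genes per list and stage with the smallest unadjusted p and the 3 genes most like each member. Hbb-bs was named by this rule because only 4 blood genes were tested in blastocysts, and its limma adjusted p there was 0.939. Some genes that this rule names are not reported here. Members and lists were chosen with earlier results of these data known. Alternatives were the pseudocount, filter, trend, quantile normalization, a replicate block and leaving out each library.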

Additional observations from a re-analysis of the deposited data

Results flagged for a closer look

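Of 82 genes looked at (the 8 genes and the genes named from the lists), 73 were tested at both stages. Of these, 7 had both KD libraries on one side of NC in morulae and on the other side in blastocysts, without overlap, beside 4.33% of all genes. For each, the KD difference in blastocysts minus that in morulae was tested in a limma fit of all 8 libraries, and none passed after adjustment over 12875 genes. Gjb5 was the only one of the 8 genes, at -0.99 (adjusted p = 0.835), and the connexin gene Gja4 was at -1.59 (adjusted p = 0.921), with an NC morula mean of 7.25 that lies under the filter of 10. The epiblast gene Utf1 was at -1.004 (adjusted p = 0.579). In the opposite sense were 4 genes: the tetraspanin Tspan18 at 1.38 (adjusted p = 0.834), the cytokine Lif at 1.07 (adjusted p = 0.835), Dsp at 0.82 (adjusted p = 0.619) and Krt18 at 0.72 (adjusted p = 0.674). All 7, Gjb5 among them, were flagged from the same values that the test used, so their differences were in part selected. All but Gjb5 were also named as the genes with the smallest unadjusted p of a list at 1 stage or both.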

How the results depend on the processing

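The morula count of 1 called gene became 0 without the mean-variance trend and 892 with a replicate block, and was 1 without any single library. The blastocyst count of 12 became 27 without a filter on low values, 0 without the trend and 1208 with the block. It was 2 without NC replicate 1, 3 without NC replicate 2, and 1 without KD replicate 1 or KD replicate 2. The count for a difference between stages became 1 with the block and ranged from 0 to 2 when a library was left out.

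Same-numbered libraries deviated together (r over genes 0.297 in morulae and 0.146 in blastocysts), but no label says that the numbers pair the pools and there are only 2, so they were not taken as pairs. With the replicate block 2 of the 8 genes passed in blastocysts, beside 1208 of all 13651 tested, Tspan8 at 0.40 (limma adjusted p = 0.0262) and Gjb5 at -0.44 (adjusted p = 0.0278). None of 7 passed in morulae, beside 892 of 13404. In no other setting did any of the 8 pass.

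Of 248 values of the 8 genes under alternatives, 219 kept their direction and their side of the threshold, 2 newly passed and 27 changed sign, 26 of those when 1 library was left out. The other was Dppa1 in morulae with quantile normalization (-0.0143). With a library left out, morula differences ran from -0.47 to 0.28 for Tspan8, -0.40 to 0.53 for Ppl, -1.17 to 1.29 for Dppa1 and -0.26 to 0.0359 for Wnt7b. Blastocyst differences ran from -0.83 to 0.10 for Tspan1, -0.50 to 0.0725 for Ppl and -0.23 to 0.46 for Dppa1. Differences between stages ran from -0.49 to 0.44 for Tspan1, -0.75 to 0.18 for Ppl, -1.18 to 1.28 for Dppa1, -0.10 to 0.20 for Wnt7b and -1.30 to 0.38 for Msx2. Other ranges kept their sign but were wide: in blastocysts 0.10 to 1.13 for Plac1, 0.06 to 0.73 for Tspan8 and 0.12 to 0.92 for Msx2, and in morulae 0.14 to 1.83 for Msx2 and -0.55 to -0.13 for Tspan1. The cause of these shifts was not tested. Where the groups did not overlap, as for Msx2 in blastocysts and Tspan1 in morulae, the sign could not change. Plac1 in morulae lay under the filter, and its log2 difference without the filter was 0.72 ± 0.82 (SE).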
